A study of Mus musculus with 18 samples.

Results

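Tnf, Lta and Ltb encode the ligands tumour necrosis factor (TNF), lymphotoxin alpha and lymphotoxin beta, and Tnfrsf1a, Tnfrsf1b and Ltbr encode the receptors that bind them, TNFR1, TNFR2 and the lymphotoxin beta receptor. These 6 genes were taken by symbol from a table of 24411 gene symbols, and all 6 were found. All 6 passed the filter on low values (1 TPM or more in at least 3 libraries), which 11548 symbols passed in all. Lta passed it through its M1 libraries alone, so its high M1 level is a condition of its being tested. TPM is a level corrected for transcript length and expressed as a share of all transcripts in the library, so levels of different genes on this scale can be set side by side.

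TNF is made as a membrane protein that a metalloprotease can release from the cell surface, and macrophages are among its chief sources. It binds TNFR1, found on most cells, which carries a death domain and starts NF-kappaB, MAP kinase and cell death signalling, and TNFR2, whose expression is more restricted and which binds membrane TNF best and has no death domain. Lymphotoxin alpha binds the same receptors when it is secreted by itself. Together with lymphotoxin beta it forms a membrane complex that binds the lymphotoxin beta receptor, which starts the non-canonical NF-kappaB pathway and is best known for the building of lymph nodes and spleen. The 3 ligand genes lie next to each other within the major histocompatibility complex.

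Polyadenylated RNA was sequenced from RAW264.7, a mouse macrophage-like cell line. Control cells had received a control guide RNA, and knockout cells were of a line in which CRISPR/Cas9 had been used against Kdm7a, which encodes a Jumonji-type histone demethylase. Cells of each genotype were left without stimulation (M0), were given mouse interferon gamma at 2 ng/ml with lipopolysaccharide at 0.1 µg/ml (M1), or received 20 ng/ml of mouse IL-4, IL-10 and IL-13 together with 2 ng/ml of human TGF-beta 1 (M2). Stimulation lasted 48 h. With 3 libraries in each of 6 groups, every mean ± SD has n = 3. The labels do not say whether the libraries of a group came from separate cultures or whether the knockout line was a single clone. The p-values therefore measure only the spread between libraries, which may be technical, and Kdm7a loss cannot be told apart from other differences between the control and knockout lines.

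Within each condition the knockout libraries all had less Kdm7a than the control libraries, at 3.37 ± 0.14 against 11.1 ± 0.17 TPM in M0, 7.49 ± 0.26 against 29.7 ± 0.85 TPM in M1 and 6.80 ± 0.88 against 23.3 ± 1.1 TPM in M2. Of 10 macrophage markers 9 stood at 1 TPM or more in every group, with summed levels of 4979 to 7435 TPM over all libraries, and Mertk was the exception. Of the T cell markers in the table Lck alone reached a group mean of 1 TPM, and of the B cell markers Cd79a alone. Cd3g, Cd8a and Ms4a1 were listed at 0 in every library. No natural killer cell, fibroblast or epithelial marker reached that group mean. Summed fibroblast markers ran from 0.50 to 3.29 TPM in the knockout M1 libraries, against 0.19 to 0.34 TPM in the control M1 libraries. The sequencing depth behind each TPM is unknown. TPM are shares of a fixed total. The median gene tested was lower in M1 than in M0 by 0.38 log2 units in control cells and 0.43 in knockout cells. After scaling with trimmed-mean (TMM) or median-ratio factors that shift was 0.01 to 0.05 log2 units in the other direction. The part of library composition in the shift was not tested. Values are as deposited unless a scaling is named, and the M1 results of the 6 genes whose call, direction or order turns on it are given both ways.

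The genomic surroundings of the ligand genes are shown first, since Tnf and Ltb differed most between conditions among the ligands and lie side by side. In RefSeq's annotation of the mouse build GRCm38.p6, Ltb lies on the plus strand of chromosome 17 from 35194507 to 35196305. Tnf lies on the minus strand from 35199367 to 35202007 and Lta, also on the minus strand, from 35203165 to 35205578. Tnf is 3061 bases from Ltb and 1157 bases from Lta, and the 3 genes span 11072 bases. Mir6973a and Mir6974, annotated microRNA genes, overlap Ltb and Lta, and no annotated gene overlaps the other 4. Ltbr and Tnfrsf1a share a second locus on chromosome 6, at 125306571 to 125313885 (minus strand) and 125349723 to 125362483 (plus strand), 35837 bases apart. Tnfrsf1b lies by itself on chromosome 4 at 145212368 to 145246870 (minus strand).

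The 250 bases before the annotated start, from RefSeq on GRCm38.p6, are printed for the 2 genes with the largest M1 rises and the gene with the largest M2 fall among the 6. They are chr17:35202008-35202257 (minus strand) for Tnf, chr4:145246871-145247120 (minus strand) for Tnfrsf1b and chr17:35194257-35194506 (plus strand) for Ltb. Capitals mark the matches, on either strand, to any motif named in the next paragraph.
Tnf: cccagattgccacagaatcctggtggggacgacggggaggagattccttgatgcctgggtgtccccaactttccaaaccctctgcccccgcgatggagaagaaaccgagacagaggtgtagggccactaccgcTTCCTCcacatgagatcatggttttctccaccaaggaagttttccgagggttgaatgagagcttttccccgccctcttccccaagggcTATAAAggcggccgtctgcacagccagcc
Tnfrsf1b: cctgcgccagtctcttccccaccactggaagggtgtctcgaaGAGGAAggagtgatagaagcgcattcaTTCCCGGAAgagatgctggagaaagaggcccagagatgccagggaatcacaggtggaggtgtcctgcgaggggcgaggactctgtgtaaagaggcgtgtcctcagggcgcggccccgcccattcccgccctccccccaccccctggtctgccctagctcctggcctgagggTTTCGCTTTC
Ltb: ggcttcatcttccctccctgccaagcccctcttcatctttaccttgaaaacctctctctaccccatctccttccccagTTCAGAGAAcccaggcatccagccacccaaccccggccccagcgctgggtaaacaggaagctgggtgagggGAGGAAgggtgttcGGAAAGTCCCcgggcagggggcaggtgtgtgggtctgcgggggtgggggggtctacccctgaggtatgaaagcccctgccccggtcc

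The same window was searched in 32851 RefSeq promoter entries, on both strands, and all 6 genes had an entry. The Lta entry, from another transcript start, lies mostly inside the gene as annotated above, so its matches are not given. The kappaB site of the immunoglobulin kappa enhancer was in 46 entries (0.140%) and, among the other 5 genes, in Ltb alone, at bases -87 to -78 on the opposite strand. That site was also the one match to the looser kappaB consensus, which 7.25% of entries held. The interferon gamma activated (GAS) motif TTCNNNGAA was in 7.02% of entries, with matches in Ltb, Tnfrsf1a and Tnfrsf1b. Its STAT6 form, TTC and GAA with any 4 bases between, was in 5.85% and matched in Ltbr. The interferon response motif, GAAA repeated after any 2 bases, was in 2.98% and matched in Tnfrsf1b alone, at bases -10 to -1. The PU.1 core GAGGAA, a motif of the myeloid lineage factor, was in 23.3% of entries and in Tnf, Ltb, Ltbr and Tnfrsf1b. TATAAA was in 12.4% and matched in Tnf, at bases -29 to -24. The AP-1 motif TGANTCA, with 6.75%, matched in none of the 5. A match is a stretch of letters and not evidence of binding.

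M1 stimulation of control cells gave large rises of Tnf and Tnfrsf1b, smaller ones of Tnfrsf1a and Ltbr, the latter slight before scaling, while Ltb was at or somewhat below its M0 level. Tnf stood at 73.8, 75.3 and 72.2 TPM in the M0 libraries and at 2174, 2118 and 2150.2 TPM in the M1 libraries. Its mean was 29.1-fold higher, a log2 fold change of 4.85 ± 0.058 (SE, limma adjusted p = 1.77e-23), which took it from percentile 79.1 to percentile 99.6 of the genes tested. Tnfrsf1b stood at 14.8, 14.6 and 13.9 TPM in M0 and at 712, 713 and 731 TPM in M1. This was 49.9-fold higher, with a log2 fold change of 5.55 ± 0.048 (SE, limma adjusted p = 1.48e-25), the larger of the rises of these receptors. Tnfrsf1a, at 77.5, 78.4 and 74.2 TPM in M0, was 2.18-fold higher in M1, at 169, 164 and 170 TPM (log2 fold change 1.12, limma adjusted p = 1.68e-17). The M0 and M1 libraries of each of these genes lay far apart.

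Lta, a lymphocyte product for the most part, was low throughout: 0.45, 0.23 and 0.07 TPM in M0 and 7.63, 5.62 and 5.75 TPM in M1 (log2 fold change 2.55 with 1 TPM added). Since it was tested only through its M1 libraries, its M1 rise is a description and is left out of the M1 counts. Ltbr rose from 60.6, 57.4 and 54.1 TPM to 68.9, 65.6 and 66.3 TPM, a log2 fold change of 0.22 (limma adjusted p = 1.06e-04), and of 0.72 and 0.68 after TMM and median-ratio scaling. Ltb stood at 124, 139 and 128 TPM in M0 and at 82.9, 83.8 and 86.6 TPM in M1, so that no libraries overlapped. Its log2 fold change was -0.62 (limma adjusted p = 0.00331) on TPM as deposited, but -0.12 and -0.15 after TMM and median-ratio scaling, where it did not pass (adjusted p = 0.495 and 0.362). With 0.1 TPM added in place of 1 it did not pass either (adjusted p = 0.108). On TPM as deposited 4 of the other 5 genes were thus called higher and 1 lower, where 89.1% of all genes tested were called, 32.2% higher and 56.9% lower. All 5 had M0 and M1 libraries that did not overlap, as did 90.0% of all genes tested. After TMM scaling 51.9% of the calls over all genes were higher, against 36.1% as deposited.

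**Figure D1:**
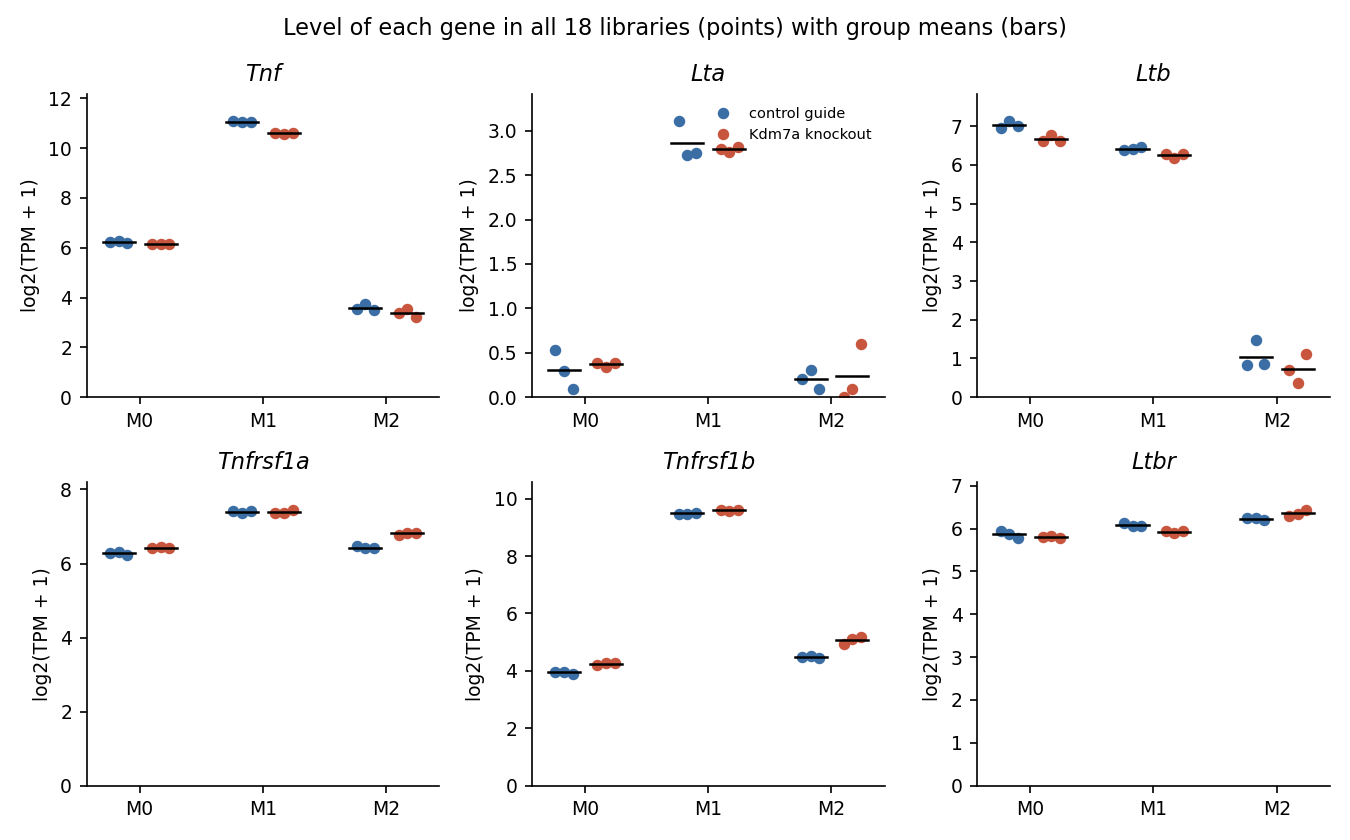
Level of each of the 6 genes as log2(TPM + 1) in all 18 libraries (points, control guide in blue and Kdm7a knockout in red) under M0, M1 and M2, with group means as black bars; each panel has its own vertical axis, which starts at 0. Tnf and Tnfrsf1b are highest in the 6 M1 libraries, and Ltb is near 1 on this scale or below in M2.

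M2 stimulation of control cells went with a deep fall of Ltb, a fall of Tnf and small rises of all 3 receptors. Ltb was at 0.77, 1.76 and 0.81 TPM in the M2 libraries, 0.854% of its M0 mean, with a log2 fold change of -5.99 ± 0.17 (SE, limma adjusted p = 2.55e-13). It went from percentile 88.3 of the genes tested in M0 to percentile 6.71 in M2. Tnf was at 10.6, 12.3 and 10.2 TPM in M2, 14.9% of its M0 mean, with a log2 fold change of -2.64 ± 0.058 (SE, limma adjusted p = 3.17e-18). No M2 library of either gene came near an M0 library. Lta, at 0.15, 0.24 and 0.07 TPM, overlapped its M0 libraries (limma adjusted p = 0.522).

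Tnfrsf1b rose under M2 to 21.3, 21.8 and 21.0 TPM, a log2 fold change of 0.54 (limma adjusted p = 7.46e-09). Ltbr reached 74.9, 74.5 and 72.2 TPM, its highest level in control cells as deposited, with a log2 fold change of 0.36 (limma adjusted p = 5.94e-07). After TMM scaling its M2 change was 0.41 and its M1 change the larger, at 0.72. Tnfrsf1a reached 87.1, 84.3 and 84.8 TPM, a log2 fold change of 0.15 (limma adjusted p = 5.27e-04). The M2 libraries of all 3 receptors lay above every M0 library. In this comparison 3 of the 6 genes were called higher and 2 lower, where 65.4% of all genes tested were called, 28.4% higher and 37.0% lower. All but Lta had no overlap between M0 and M2, against 69.6% of all genes tested. In bulk RNA a change in how many cells express a gene and a change in its RNA per cell cannot be told apart.

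**Figure D2:**
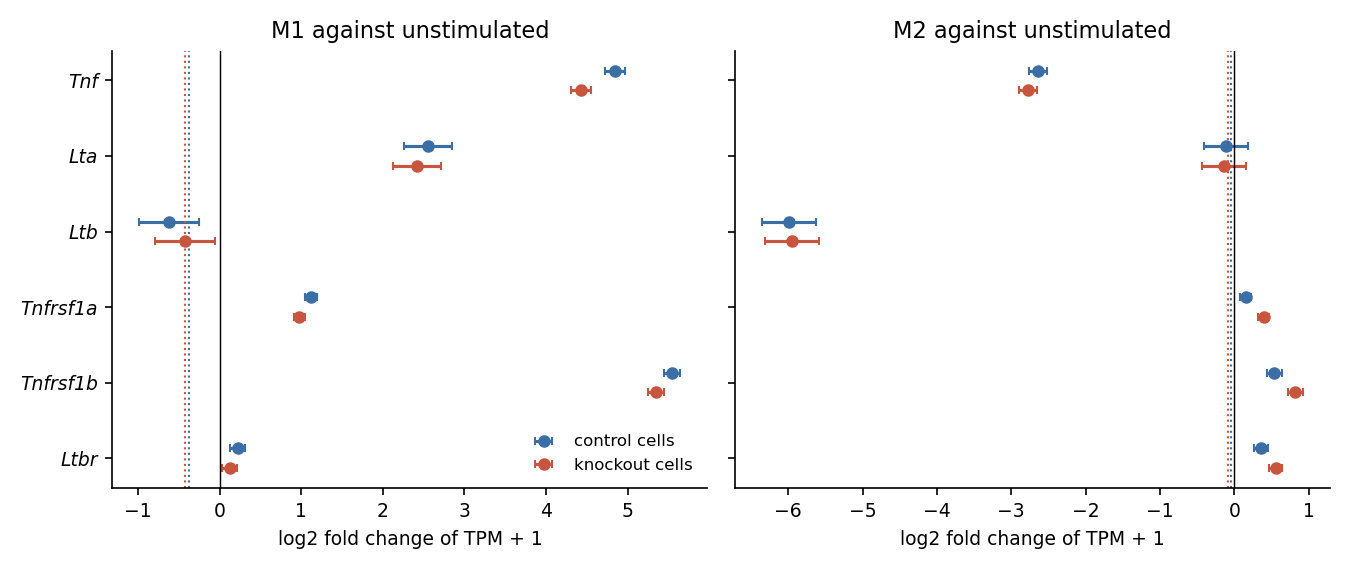
Log2 fold change of TPM + 1 against unstimulated cells under M1 (left) and M2 (right) for the 6 genes in control (blue) and knockout (red) cells, with 95% confidence intervals from limma; dotted lines mark the median of all genes tested. Tnf and Tnfrsf1b lie near 5 under M1 in both genotypes, and Ltb lies near -6 under M2.

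On TPM as deposited the knockout cells responded in the same direction as control cells for each gene called in control cells, and Ltb under M1 did not after scaling. Under M1, Tnf rose from 71.0, 70.5 and 69.7 TPM to 1559, 1518 and 1548 TPM, 21.9-fold (log2 fold change 4.43, limma adjusted p = 5.43e-23). Tnfrsf1b rose from 17.4, 18.5 and 18.2 TPM to 784, 763 and 777 TPM, 42.9-fold (log2 fold change 5.35, limma adjusted p = 1.64e-25). Tnfrsf1a rose from 84.1, 85.6 and 84.1 TPM to 163, 165 and 175 TPM, a log2 fold change of 0.98 (limma adjusted p = 1.47e-16). Ltbr, at 53.8 to 56.2 TPM in M0 and 58.4 to 60.8 TPM in M1, had a log2 fold change of 0.12 (limma adjusted p = 0.0145), a call that was lost without M0 knockout replicate 3 (adjusted p = 0.0529). After TMM and median-ratio scaling it was 0.68 and 0.65, called in both (adjusted p = 3.62e-12 with TMM factors). Ltb was at 98.2, 109 and 97.3 TPM in M0 and at 76.7, 72.2 and 76.4 TPM in M1, a log2 fold change of -0.43 (limma adjusted p = 0.0277) that became 0.13 and 0.10 after TMM and median-ratio scaling. That call was also lost with 0.1 TPM added (adjusted p = 0.253) and without M0 replicate 2, M1 replicate 2 or M1 replicate 3 of the knockout, with a highest adjusted p of 0.0831. Lta was at 0.31, 0.27 and 0.31 TPM in M0 and at 5.95, 5.80 and 6.04 TPM in M1 (log2 fold change 2.42). As in control cells, without Lta, 4 genes were called higher and 1 lower, where 90.3% of all genes were called, 32.0% higher and 58.4% lower. None of these 5 overlapped between M0 and M1, which held for 90.9% of all genes tested. Of those calls over all genes 35.4% were higher as deposited and 51.3% after TMM scaling.

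Under M2 the knockout libraries held 0.64, 0.28 and 1.15 TPM of Ltb, 0.680% of the M0 mean (log2 fold change -5.95, limma adjusted p = 2.22e-13). Tnf was at 9.44, 10.5 and 8.39 TPM, 13.4% of its M0 mean (log2 fold change -2.78, limma adjusted p = 9.93e-19). The 3 receptors rose, Tnfrsf1b by 0.82, Ltbr by 0.55 and Tnfrsf1a by 0.39 log2 units (limma adjusted p = 8.63e-12, 8.83e-10 and 2.36e-09). Lta was listed at 0, 0.07 and 0.52 TPM. Without M2 replicate 3, the library with 0.52 TPM, its log2 fold change of -0.14 (limma adjusted p = 0.380) became -0.33 (adjusted p = 0.0309). In all 3 genes were called higher and 2 lower, where 72.9% of all genes were called, 29.6% higher and 43.2% lower. Again all but Lta had no overlap between M0 and M2, against 73.8% of all genes tested. The comparisons of M1 and of M2 with M0 use the same M0 libraries within a genotype.

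The make-up of the ligand and receptor RNA differed between conditions. Ltb made up 63.8 ± 1.2% of the summed TPM of the 3 ligands in M0 control cells, Tnf 36.1 ± 1.1% and Lta 0.123 ± 0.097%. In M1 Tnf made up 95.9 ± 0.060%, and in M2 90.0 ± 3.5% of a sum that had gone from 204 to 12.3 TPM. The sum stood at 2238 TPM in M1. Among the receptors Tnfrsf1a came first in M0, with 51.7 ± 0.84%, ahead of Ltbr with 38.6 ± 0.89% and Tnfrsf1b with 9.71 ± 0.073%. In M1 Tnfrsf1b made up 75.4 ± 0.40% of a receptor sum that had gone from 149 to 953 TPM, and in M2 11.8 ± 0.24% of 181 TPM. In knockout cells Tnfrsf1b held 11.5%, 77.3% and 14.5% in M0, M1 and M2.

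**Figure D3:**
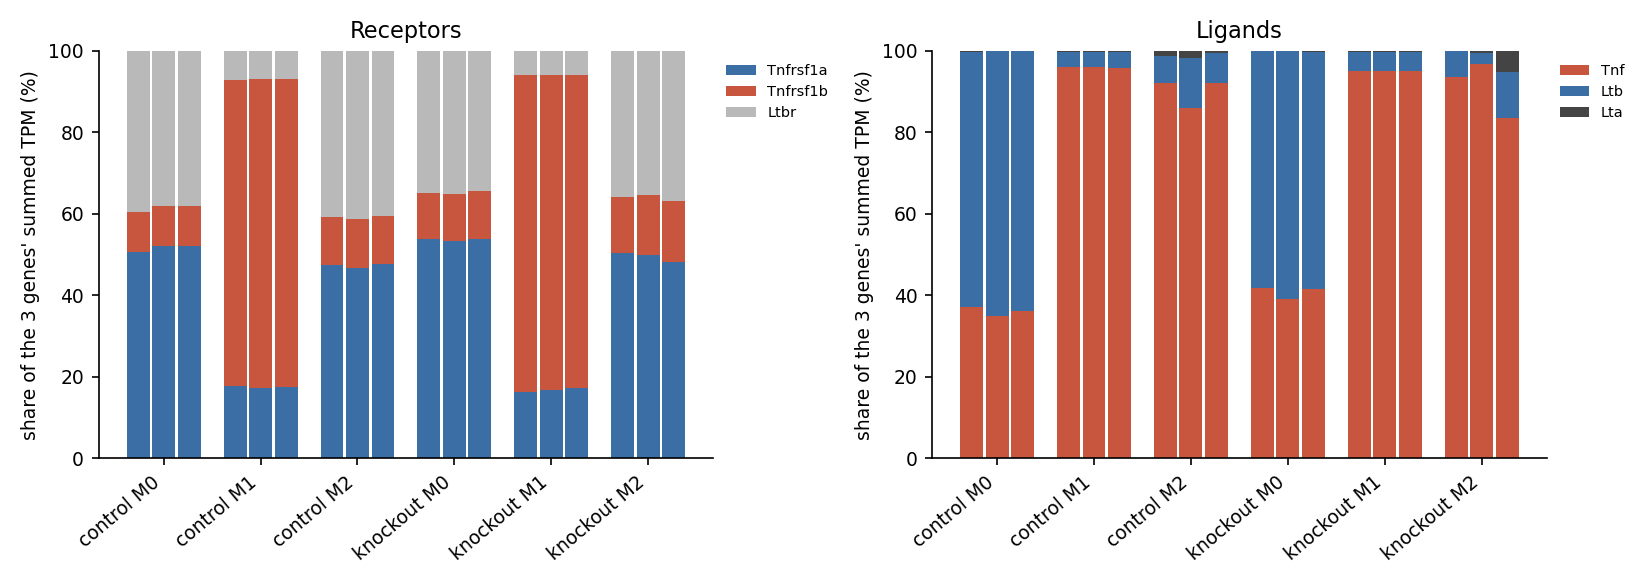
Share of each gene in the summed TPM of the 3 receptors (left) and the 3 ligands (right), in percent, with 1 bar for each of the 18 libraries. Tnfrsf1b (red) goes from about 10% of the receptor sum in M0 to over 74% in M1, and Ltb (blue) is the larger ligand share in M0 only.

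The ratio of Tnfrsf1b to Tnfrsf1a TPM within a library does not depend on how libraries are scaled. In control cells it was 0.188 ± 0.0023 in M0, 4.29 ± 0.075 in M1 and 0.250 ± 0.0076 in M2. In knockout cells it was 0.213 ± 0.0052, 4.63 ± 0.18 and 0.293 ± 0.021. The knockout ratio was thus 1.14-fold, 1.08-fold and 1.17-fold higher in M0, M1 and M2, and knockout and control libraries did not overlap in any condition. A comparison of 3 with 3 libraries cannot go below p = 0.10 in the exact permutation test, two-sided, and each of the 7 comparisons of this ratio gave that value (0.1 after adjustment over the 7). With libraries permuted within conditions, the mean difference over the 3 conditions was 0.17 log2 units, 1.13-fold, and the exact permutation p = 0.00025 was the smallest that the 8000 permutations can give. The difference stayed between 0.16 and 0.19 log2 units with each library left out in turn.

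Knockout and control cells differed little in these genes without stimulation. Tnfrsf1b was higher in every knockout library (17.4 to 18.5 TPM) than in every control library (13.9 to 14.8 TPM), a log2 fold change of 0.30 (limma adjusted p = 1.06e-04). Tnfrsf1a was higher by 0.14 log2 units (84.1 to 85.6 against 74.2 to 78.4 TPM, limma adjusted p = 0.00539). The Ltb libraries did not overlap either, at 97.3 to 109 TPM in knockout and 124 to 139 TPM in control cells. Its log2 fold change of -0.36 did not pass in the fit over all groups (limma adjusted p = 0.170) and did in a fit of the M0 groups alone (adjusted p = 8.37e-04). All groups share a gene's spread in the former, and relative to its mean Ltb varied most in M2. Its SD there was 50.3% of the mean in control and 63.4% in knockout cells, against 6.17% and 6.44% in M0. Tnf, with a log2 fold change of -0.07 (95% confidence interval -0.19 to 0.06), Lta and Ltbr did not pass. That 2 of the 6 genes were called, both higher, stands beside 19.2% of all genes tested, with 8.86% called higher and 10.3% lower. The libraries of the genotypes did not overlap for 4 of the 6, Tnf (69.7 to 71.0 against 72.2 to 75.3 TPM) being the other, where this held for 37.3% of all genes tested.

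Under M1 Tnf was lower in knockout cells. Its 3 knockout libraries held 1559, 1518 and 1548 TPM and its control libraries 2174, 2118 and 2150.2 TPM, with no overlap, and the knockout mean was 71.8% of the control mean. The log2 fold change was -0.48 (95% confidence interval -0.60 to -0.36, limma adjusted p = 1.43e-06) as deposited, and -0.42 and -0.41 after TMM and median-ratio scaling. The difference between the M1 responses of the genotypes was -0.41 log2 units for Tnf (limma adjusted p = 6.71e-04), and -0.36 and -0.34 after the same scalings. Tnf is the one gene of the 6 for which the M1 response called different between genotypes kept its call under both scalings. As deposited 3 of the 6 were called in that test, all lower (Tnf, Tnfrsf1a and Tnfrsf1b), where 36.0% of all genes tested were called, 12.1% higher and 23.9% lower.

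The receptors differed less under M1. Tnfrsf1a stood at 163 to 175 TPM in knockout and 164 to 170 TPM in control libraries, with a log2 fold change of -0.00 (95% confidence interval -0.07 to 0.07), or 0.06 and 0.07 after TMM and median-ratio scaling. Tnfrsf1b was higher in every knockout library, at 763 to 784 against 712 to 731 TPM. Its log2 fold change of 0.11 (limma adjusted p = 0.0693) did not pass as deposited, but became 0.17 and 0.18 after TMM and median-ratio scaling and passed there (adjusted p = 0.00207 and 0.00178). It also passed in a fit of the M1 groups alone (adjusted p = 0.00108). Ltbr was lower in every knockout library, at 58.4 to 60.8 against 65.6 to 68.9 TPM, a log2 fold change of -0.16 (limma adjusted p = 0.00505) that was -0.09 after median-ratio scaling and did not pass there (adjusted p = 0.0579).

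Ltb was at 72.2 to 76.7 TPM in knockout and 82.9 to 86.6 TPM in control M1 libraries. Its log2 fold change of -0.17 did not pass in the fit over all groups (limma adjusted p = 0.443). It did in the fit of the M1 groups alone (adjusted p = 0.00173), which the spread of Ltb in M2 does not enter. Lta overlapped between genotypes. Tnf and Ltbr were the 2 genes called lower in M1, and none was called higher, where 50.3% of all genes were called, 16.9% higher and 33.4% lower. No overlap between genotypes was seen for 4 of the 6, Tnf, Tnfrsf1b, Ltbr and Ltb, and for 60.1% of all genes tested. Of the calls over all genes 33.6% were higher as deposited and 47.1% after TMM scaling.

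**Figure D4:**
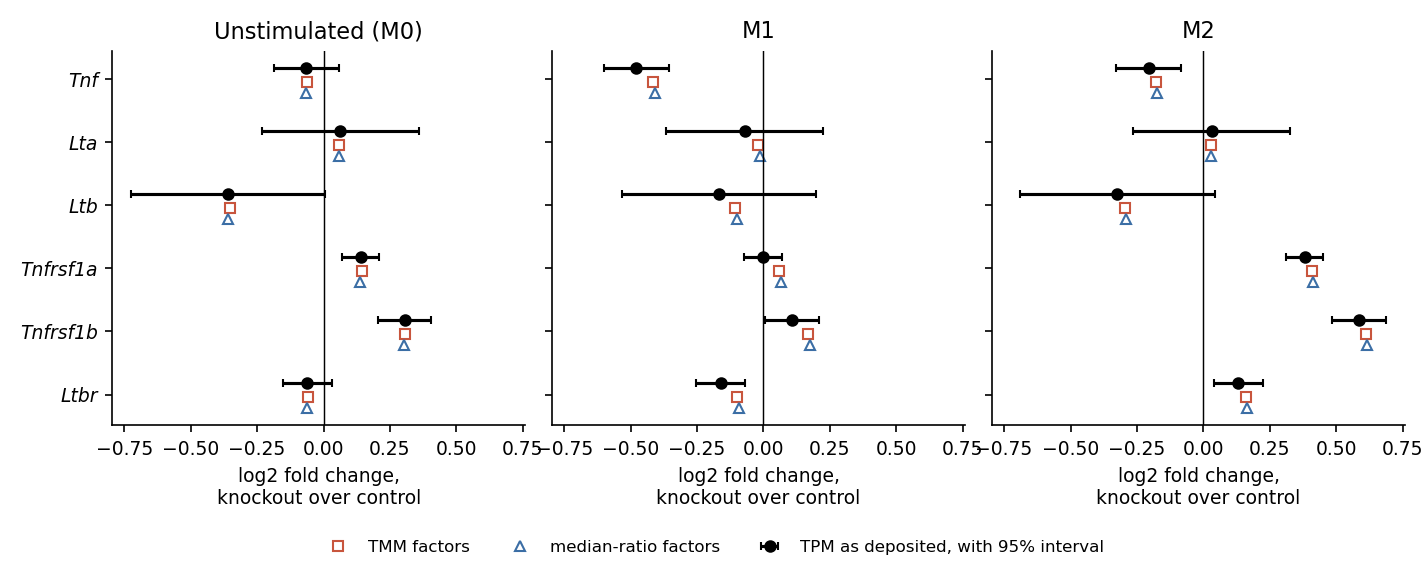
Log2 fold change of TPM + 1, knockout over control, for the 6 genes in M0, M1 and M2; black points with 95% confidence intervals are from limma on TPM as deposited, red squares and blue triangles the same after TMM and median-ratio scaling. Tnf is lower under M1 in all 3 versions, and Tnfrsf1a and Tnfrsf1b are higher under M2 in all 3.

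Under M2 both TNF receptors were higher in knockout cells. Tnfrsf1b was at 29.4, 33.4 and 35.3 TPM in the knockout libraries and at 21.3, 21.8 and 21.0 TPM in the control libraries, 1.53-fold higher, with a log2 fold change of 0.59 (limma adjusted p = 1.65e-08). Tnfrsf1a was at 109, 113 and 113 TPM in knockout and 87.1, 84.3 and 84.8 TPM in control libraries, 1.31-fold higher, with a log2 fold change of 0.38 (limma adjusted p = 4.19e-08). Neither gene's libraries overlapped. For both, the M2 response differed between genotypes, by 0.24 log2 units for Tnfrsf1a and 0.28 for Tnfrsf1b (limma adjusted p = 0.00159 and 0.00842). With Ltbr, 3 of the 6 genes were called in that test, all higher, where 14.1% of all genes tested were called, 7.06% higher and 7.05% lower. The Ltbr call (adjusted p = 0.0442) was lost in 12 of 18 fits with a library left out and with a replicate block (adjusted p = 0.0587). It was also lost with no variance trend, with no filter, with 0.1 TPM added and in a fit of the compared groups alone (adjusted p = 0.0689).

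Ltbr was at 77.2, 80.1 and 86.1 TPM in knockout and 72.2 to 74.9 TPM in control M2 libraries, a log2 fold change of 0.13 (limma adjusted p = 0.0286). That call was lost without control replicate 2 or 3 or knockout replicate 2 or 3 (highest adjusted p = 0.153) and in a fit of the M2 groups alone (adjusted p = 0.0633). Tnf was at 9.44, 10.5 and 8.39 TPM in knockout and 10.6, 12.3 and 10.2 TPM in control libraries, which overlap, with a log2 fold change of -0.21 (limma adjusted p = 0.0117). Without control replicate 2 the Tnf call was lost (log2 fold change -0.13, adjusted p = 0.0837), as it was without knockout replicate 3 (-0.13, adjusted p = 0.0780) and in a fit of the M2 groups alone (adjusted p = 0.123).

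Control replicate 2, which had the most Tnf and Ltb of the M2 libraries of either genotype, also had the most RNA of genes high in M1. For 16 genes at 500 TPM or more in M1 and under 1 TPM in M0 control cells, the median level as a share of the M1 mean was 0.0788%, 0.153% and 0.00853% in control M2 replicates 1, 2 and 3. The M0 control libraries stood at 0.00937% to 0.0281% by this measure. The part of this in the Tnf and Ltb values was not tested. Ltb itself, at 0.64, 0.28 and 1.15 TPM in knockout cells, overlapped the control libraries (log2 fold change -0.32, limma adjusted p = 0.171). It passed only without knockout replicate 3 (-0.51, adjusted p = 0.0231). In M2 3 of the 6 genes were called higher and 1 lower, where 30.9% of all genes were called, 12.7% higher and 18.3% lower. The 3 receptors were without overlap between genotypes, where 41.1% of all genes tested were. Of the calls over all genes 41.0% were higher as deposited and 54.0% after TMM scaling. Summed macrophage markers were lower in knockout libraries in all 3 conditions, at 6147 to 6215 against 7362 to 7435 TPM in M0, 5836 to 6022 against 6500 to 6670 TPM in M1 and 4979 to 5114 against 5751 to 5925 TPM in M2. In M2 Cd79a was the B cell marker behind summed levels of 19.6 to 21.2 against 13.1 to 15.1 TPM. The part of these in the differences between genotypes in M0, M1 and M2 was not tested.

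Ordered by mean TPM as deposited, the groups ran for Tnf from control M1 through knockout M1, control M0, knockout M0 and control M2 to knockout M2, a span of 228-fold, and only the last neighbours in that order overlapped. For Ltb the order was control M0, knockout M0, control M1, knockout M1, control M2 and knockout M2, a span of 189-fold, again with an overlap between the M2 groups alone. Tnfrsf1b spanned 53.7-fold from knockout M1 to control M0, and no neighbours overlapped. Tnfrsf1a spanned 2.18-fold, where the M1 groups overlapped with each other and control M2 overlapped knockout M0. Ltbr spanned 1.48-fold, from knockout M2 to knockout M0, and knockout M1, control M0 and knockout M0 overlapped as neighbours. After TMM or median-ratio scaling the order of 3 of the genes changed: Ltb ran from control M0 through control M1, knockout M1 and knockout M0 to the M2 groups, Ltbr was highest in control M1 and then knockout M1, and knockout M1 stood above control M1 for Tnfrsf1a. The Lta libraries of the M1 groups overlapped each other and lay above all others, and every neighbouring pair among the M0 and M2 groups overlapped.

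The neighbouring genes of the ligand locus were read for comparison. Of 9 tested neighbours within 77.3 kb, 3 were higher and 2 lower under M1 in control cells (6 and 1 after TMM scaling), beside 32.2% and 56.9% of all genes tested. Under M2 1 was higher and 7 lower (2 and 6 after TMM scaling), beside 28.4% and 37.0%. The median log2 fold change of the 9 under M2 was -0.47, beside -0.05 for all genes tested. Lst1, a leukocyte gene 10.9 kb from Tnf on the side of Ltb, fell from 233 ± 17 TPM in M0 to 27.3 ± 0.86 TPM in M2 in control cells, a log2 fold change of -3.05 (limma adjusted p = 5.62e-19). In knockout cells it was 209 ± 17 and 27.8 ± 0.35 TPM. Under M1 Lst1 rose by 0.56 log2 units (limma adjusted p = 2.66e-08), and by 1.07 after TMM scaling. Aif1, a macrophage calcium-binding protein gene further on, rose under M1 (0.98, limma adjusted p = 1.48e-06, and 1.45 after TMM scaling) and fell under M2 (-0.70, limma adjusted p = 1.72e-04). Ddx39b, an RNA helicase gene on the far side of Lta, fell under M1 by 2.02 (limma adjusted p = 3.47e-21), and by 1.51 after TMM scaling. The 6 tested neighbours of Ltbr and Tnfrsf1a lie 97.8 to 183 kb from Tnfrsf1a, and all but Cd9 lie on the side of Ltbr and nearer to it. Scnn1a and Plekhg6, at 4.78 and 0.168 kb, did not pass the filter. Of the 6, 3 rose and 3 fell under M1 in control cells, beside 32.2% and 56.9% of all genes tested. Under M2 1 rose and 2 fell (2 and 1 after TMM scaling), beside 28.4% and 37.0%.

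**Figure D5:**
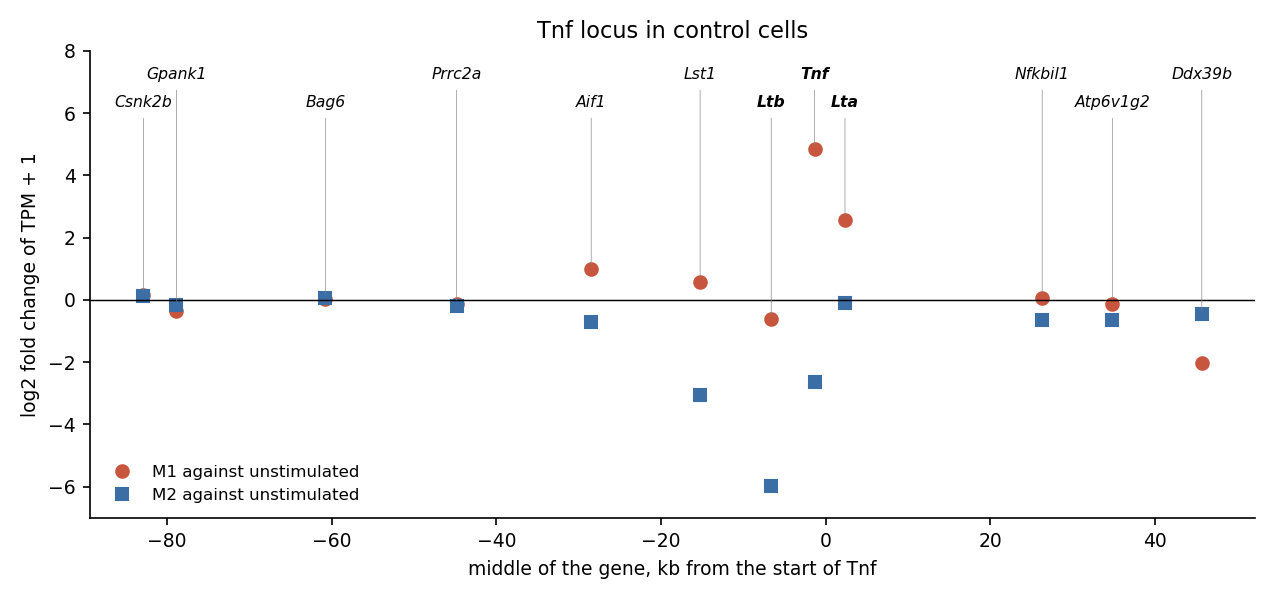
Log2 fold change of TPM + 1 in control cells under M1 (red circles) and M2 (blue squares) for Tnf, Lta, Ltb (bold) and 9 tested neighbours, plotted at the middle of each gene as distance in kb from the start of Tnf. Under M2, Ltb at -5.99, Lst1 at -3.05 and Tnf at -2.64 are the lowest points.

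Other ligands and receptors of the 2 superfamilies were read from lists. Their counts stand beside 32.2% higher and 56.9% lower among all genes tested under M1 in control cells, and 28.4% and 37.0% under M2. Of 15 other TNF superfamily ligands 7 were tested. Under M1 in control cells 3 of these rose and 4 fell (the same counts after TMM scaling), and Tnfsf10, which encodes the death ligand TRAIL, rose to 8.02 ± 0.11 TPM from below 1 TPM. Tnfsf9, which encodes the 4-1BB ligand, stood at 222 ± 5.1, 137 ± 7.7 and 44.9 ± 1.7 TPM in M0, M1 and M2 control cells. On TPM as deposited it was thus, like Ltb, highest without stimulation. Its M1 log2 fold change was -0.19 and -0.23 after TMM and median-ratio scaling, and the M1 fall of Ltb was not called after either. Under M2 2 rose and 1 fell, and Tnfsf12, the gene of TWEAK, rose to 5.82 ± 0.45 TPM from 0.600 ± 0.24 TPM.

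Of 25 other receptors of the superfamily 16 were tested, and under M1 in control cells 10 rose and 4 fell (12 and 1 after TMM scaling), with a median log2 fold change of 0.75 beside -0.38 for all genes. Cd40, the receptor for a T cell signal, rose from 5.04 ± 0.46 to 941 ± 20 TPM and Fas, a death receptor, from 1.19 ± 0.41 to 288 ± 2.0 TPM. Under M2 11 rose and 2 fell, Cd40 to 27.7 ± 1.9 and Fas to 10.8 ± 1.0 TPM. Tnfrsf1b thus stood at 719 ± 10 TPM in M1 control cells between Cd40 and Fas.

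Between genotypes under M1, 4 of the 16 receptors were higher and 7 lower in knockout cells (5 and 6 after TMM scaling), beside 16.9% and 33.4% of all genes tested. Tnfrsf9, which encodes the activation receptor 4-1BB, was at 238 ± 3.4 TPM in knockout and 40.3 ± 1.1 TPM in control cells, a log2 fold change of 2.53 (limma adjusted p = 2.08e-11). Fas was at 450 ± 3.8 and 288 ± 2.0 TPM (0.65, limma adjusted p = 2.77e-05). Tnfrsf26 was lower, at 68.7 ± 0.75 against 134 ± 2.2 TPM (-0.95, limma adjusted p = 6.78e-10). Under M2 2 of the 16 were higher and 2 lower, beside 12.7% and 18.3%, with Fas at 29.5 ± 1.5 TPM in knockout and 10.8 ± 1.0 TPM in control cells (1.37, limma adjusted p = 6.87e-09). Without stimulation 1 was higher and 5 lower, beside 8.86% and 10.3%.

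Of 29 genes listed for TNF receptor signalling, 21 rose and 5 fell under M1 in control cells (24 and 5 after TMM scaling). Their median log2 fold change was 0.66 beside -0.38 for all genes tested, of which 32.2% rose and 56.9% fell. The list includes Sppl2a, a gene of the cleavage of TNF and not of the receptor complexes, which rose by 2.22 under M1 after TMM scaling. Traf1, an adaptor of TNFR2 signalling, rose from 4.20 ± 0.36 to 371 ± 3.9 TPM, the feedback inhibitor Tnfaip3 from 9.66 ± 0.83 to 127 ± 2.9 TPM and the necroptosis effector Mlkl from 22.2 ± 0.34 to 345 ± 2.4 TPM. Under M2 12 rose and 9 fell (13 and 6 after TMM scaling), beside 28.4% and 37.0% of all genes tested. Between genotypes 6 were higher and 4 lower in M0, where 19.2% of all genes tested were called, and 5 and 3 in M2, where 30.9% were. In M1 8 were higher and 4 lower (11 and 2 after TMM scaling), a smaller share than the 50.3% called over all genes. Among those at 5 TPM or more, Tab1 (0.28) differed most in M0 and Ikbkg (0.27) in M2, both parts of the kinase complexes below TNFR1.

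Of 8 genes of the non-canonical NF-kappaB arm below the lymphotoxin beta receptor, 5 rose and 2 fell under M1 in control cells. After TMM scaling these counts were 6 and 2, and of all genes tested 32.2% rose and 56.9% fell as deposited. Nfkb2, which encodes its precursor subunit, rose from 50.3 ± 1.4 to 205 ± 1.2 TPM, and Traf3, which holds the pathway off, fell from 19.4 ± 0.92 to 6.91 ± 0.061 TPM. Under M2 1 rose and 5 fell (2 and 4 after TMM scaling), beside 28.4% and 37.0% of all genes tested. Relb, the partner of Nfkb2, fell from 14.6 ± 0.36 to 8.75 ± 1.1 TPM. Under M1 6 of the 8 were higher in knockout than in control cells and none lower, also after either scaling, where 16.9% of all genes tested were called higher. Their median log2 fold change was 0.19 beside -0.06 for all genes. Among them were Birc2 (0.39), Birc3 (0.35), both ubiquitin ligases, Nfkb2 (0.31) and Traf2 (0.20, limma adjusted p = 0.0125). Birc2, Birc3, Traf2 and Chuk also stand in the list of signalling genes. In M2 none was higher and 2 were lower, beside 12.7% and 18.3% of all genes, and in M0 1 was higher and 1 lower, beside 8.86% and 10.3%.

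For the release of TNF from the membrane, 4 of 7 tested genes rose and 3 fell under M1 in control cells (4 and 2 after TMM scaling). Of all genes tested 32.2% rose and 56.9% fell. Sppl2a, among the 7, also stands in the list of signalling genes. Adam17, the gene of the protease that sheds TNF and both its receptors, stood at 116 ± 3.1, 125 ± 2.4 and 82.5 ± 0.25 TPM in M0, M1 and M2, with an M1 log2 fold change of 0.11, or 0.62 after TMM scaling. Rhbdf2, which encodes a carrier of that protease, rose from 25.5 ± 0.36 to 187 ± 2.7 TPM under M1 and 48.6 ± 1.6 TPM under M2. Adam10, a related protease, fell to 44.1 ± 0.14 TPM under M1 and rose to 315 ± 4.7 TPM under M2 from 85.9 ± 3.8 TPM, the M1 change being -0.94 log2 units, or -0.44 after TMM scaling. Between genotypes 2 of the 7 were higher and 3 lower in knockout cells in M1 (4 and 3 after TMM scaling), beside 16.9% and 33.4% of all genes. In M2 2 were higher and none lower (3 and none after TMM scaling), beside 12.7% and 18.3%. In M1 Sppl2b, the gene of a protease that cuts membrane stubs of TNF, was lower by 0.31 log2 units and Rhbdf2 by 0.20 (limma adjusted p = 0.00258 and 0.00919). After median-ratio scaling the log2 fold change of Rhbdf2 was -0.13 and did not pass (limma adjusted p = 0.0512). That of Sppl2b was -0.26 and passed (limma adjusted p = 0.00778). Adam17 was higher in knockout cells by 0.20 log2 units in M1 (limma adjusted p = 6.25e-05) and 0.26 in M2 (limma adjusted p = 1.22e-05).

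Of 17 genes that control the stability or translation of Tnf mRNA, 7 rose and 10 fell under M1 in control cells (9 and 8 after TMM scaling). These counts stand near the shares of all genes tested, 32.2% higher and 56.9% lower as deposited. Zfp36, whose product tristetraprolin destabilizes Tnf mRNA, rose from 44.1 ± 2.2 to 1136 ± 31 TPM under M1 and to 172 ± 5.7 TPM under M2. Zfp36l2, its relative, fell from 79.2 ± 1.5 to 26.7 ± 1.8 TPM under M1 and to 34.7 ± 0.37 TPM under M2. Between genotypes in M1, where Tnf was lower in knockout cells, 5 of the 17 were higher and 4 lower (7 and 2 after TMM scaling), beside 16.9% and 33.4% of all genes. Zfp36l2 was lower there by 0.56 log2 units (17.8 ± 1.4 against 26.7 ± 1.8 TPM, limma adjusted p = 6.39e-07), with a log2 fold change of -0.50 after TMM scaling. Zfp36 went the other way, with a log2 fold change of 0.21 after TMM scaling (limma adjusted p = 1.19e-04). Mapkapk2, the gene of a kinase that stabilizes Tnf mRNA, was higher by 0.32 (796 ± 18 against 637 ± 14 TPM, limma adjusted p = 1.49e-07). In M2 6 of the 17 were higher and none lower (8 and none after TMM scaling), beside 12.7% and 18.3%, led by Map3k8, the gene of a kinase upstream of TNF production, with 0.58 (limma adjusted p = 7.92e-07). In M0 4 were higher and 1 lower, beside 8.86% and 10.3%.

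The genes most like each of the 6 over the 18 libraries were read off as the highest Pearson correlations of log2(TPM + 1) among 9692 candidates. The 18 libraries are 6 groups, and for most of the 6 genes the M1 libraries stand far from the rest, so high values are common. For Tnf the closest was Mndal (r = 0.999), followed by Themis2 and Fcgr1, and 428 candidates were above 0.95. For Tnfrsf1b it was Mxd1 (r = 0.999), followed by Dgkh and Cept1, with 1098 candidates above 0.95. For Tnfrsf1a it was Ccl4 (r = 0.991), and for Lta Whsc1l1 (r = 0.994). Fewer genes shared the patterns of Ltb and Ltbr: 34 candidates were above 0.95 for Ltb, led by Gas7 (r = 0.993), Lonrf3 and Snx27, and 22 for Ltbr, led by Ctso (r = 0.974), Tns3 and Jun.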

How the data were processed

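The values analysed are TPM by gene symbol, as the authors deposited them. They hold no counts, so the depth is unknown and no counting interval was computed; the name of the table speaks of raw counts as well, and the values are not whole numbers. Per the submitters' processing notes, the build was mm10 (GRCm38) and reads were handled with Trim Galore, of which no version is named. Which aligner, counter and annotation were used is not given in the sources used here. How reads shared by overlapping genes were assigned is likewise unknown.

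Columns were matched to samples through the library names in the labels. A single model, with a term per group, was fitted to log2(TPM + 1) with limma 3.58.1 (trend, robust) in R 4.3.3, for 11548 of 24411 symbols, those with 3 or more libraries at 1 TPM or above. At 0 throughout were 7246 symbols. The call threshold was a two-sided p of 0.05 after Benjamini-Hochberg adjustment over all genes tested. All groups share a gene's variance estimate, and fold changes on this scale understate those of low genes. The fit was first run on simulated data, with changes placed in the M0 knockout libraries alone. Those data had the same spread of a gene in all groups and no shared M1 shift. They therefore do not bear on calls that turn on unequal spread or on scaling. TMM factors were computed on the TPM values as one alternative scaling. Gene positions and promoters came from RefSeq, GRCm38.p6, in which 23194 symbols matched.

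The 6 genes, the gene lists and the tests were chosen with earlier results of these data known. Named are the 6 genes, Kdm7a, in each list and comparison up to 4 called genes with the largest change and 5 TPM or more in the higher group, and the 3 genes most correlated with each of the 6. Alternatives were 2 scalings, no variance trend, 2 filters, 0.1 TPM added, a replicate block, fits restricted to the groups compared, and leaving out each library in turn. The genes of high M1 level used to compare M2 libraries were chosen from the data.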

Additional observations from a re-analysis of the deposited data

Results flagged for a closer look

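The response to stimulation differed between knockout and control cells for 4 of the 6 genes, in 6 tests of the difference itself. For M1, the knockout response minus the control response was -0.41 log2 units for Tnf (limma adjusted p = 6.71e-04), -0.14 for Tnfrsf1a (adjusted p = 0.0255) and -0.20 for Tnfrsf1b (adjusted p = 0.0300). All 3 genes rose in both genotypes. Of the tested genes 36.0% were called in this comparison, 12.1% higher and 23.9% lower, and of the calls 33.6% were higher as deposited and 46.4% after TMM scaling. For Tnfrsf1a and Tnfrsf1b the knockout level was above the control level in M0, and both calls were lost after scaling.

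For M2, the difference was 0.28 log2 units for Tnfrsf1b (limma adjusted p = 0.00842), 0.24 for Tnfrsf1a (adjusted p = 0.00159) and 0.19 for Ltbr (adjusted p = 0.0442). The 3 receptor genes rose in both genotypes, and more in knockout cells. Of the tested genes 14.1% were called, 7.06% higher and 7.05% lower; the share of the calls that were higher was 60.3% after TMM scaling. The Ltbr call was lost in 12 of 18 fits with 1 library left out.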

How the results depend on the processing

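The rises of Tnf, Tnfrsf1b and Tnfrsf1a under M1, the falls of Tnf and Ltb under M2, lower Tnf in knockout cells under M1 and higher Tnfrsf1a and Tnfrsf1b in knockout cells under M2 kept their direction and call in every fit run. The number of genes called over the whole table stayed within 1.5-fold of that in the text for each comparison. Counts within short lists moved more. Counts after TMM scaling are given beside only part of them, and some of the others moved as well. Between genotypes in M2, for example, the signalling genes went from 5 higher and 3 lower to 6 and 3. Of the values outside the fits that left out a library, 476 were counted as unchanged, 16 lost the call, 6 gained one, 6 reversed and 2 moved. These values include the numbers of genes called over the whole table, unchanged if within 1.5-fold, and the receptor ratios, most of which carry no call. Results that were called in neither fit and kept their direction are also among the 476.

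Under TMM and median-ratio factors, which remove the shared M1 shift of TPM by construction, the Ltb M1 response was -0.12 and -0.15 log2 units in control cells (call lost) and 0.13 and 0.10 in knockout cells (reversed). Under the same 2 scalings the M1 difference between knockout and control was 0.059 and 0.067 for Tnfrsf1a (reversed) and 0.17 and 0.18 for Tnfrsf1b (call gained). It was -0.093 for Ltbr under median-ratio factors (call lost). The genotype difference in the M1 response lost its call, at -0.084 and -0.072 for Tnfrsf1a and -0.14 and -0.13 for Tnfrsf1b. With 0.1 TPM added in place of 1, the Ltb M1 response lost its call in control (-0.62) and knockout (-0.43) cells, the M2 difference of Lta between genotypes became -0.15 and the genotype difference in the M2 response of Ltb became -0.33, both reversed and neither called. The genotype difference in the M2 response of Ltbr lost its call at 0.20 with that pseudocount, and at 0.19 without the variance trend, without the filter and in the fit of the 4 groups compared. In fits of the groups compared alone, calls were gained for Ltb between genotypes in M0 (-0.36) and M1 (-0.17), for Tnfrsf1b in M1 (0.11) and for the genotype difference in the M1 response of Ltb (0.19), and lost in M2 for Tnf (-0.21) and Ltbr (0.13). With 1 TPM added to both genes, the M1 change of the receptor ratio was 4.43 log2 units in control and 4.37 in knockout cells. Apart from the scalings, the cause of these changes was not tested.

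Same-numbered libraries did not deviate together in every pair (correlations of -0.14 to 0.12 over 7 comparisons), so the replicate numbers were not taken to pair samples. A fit with a replicate block took the call from the genotype difference in the M2 response of Ltbr (0.19, limma adjusted p = 0.0587) and from no other result.

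With each library left out in turn, the M2 response of Lta ranged from -0.21 to 0.0051 log2 units in control and -0.33 to -0.024 in knockout cells, and its genotype difference from -0.22 to 0.084. Between genotypes Lta ranged from -0.043 to 0.18 in M0, -0.14 to 0.052 in M1 and -0.15 to 0.15 in M2. Ltb ranged from -0.46 to -0.38 for its knockout M1 response, -0.15 to 0.24 for the genotype difference in M2 and -0.51 to -0.12 between genotypes in M2. Ltbr ranged from 0.11 to 0.14 for its knockout M1 response, 0.15 to 0.23 for the genotype difference in M2 and 0.089 to 0.17 between genotypes in M2. Tnf between genotypes in M2 ranged from -0.28 to -0.13. The genotype difference in M1 ranged from -0.17 to -0.12 for Tnfrsf1a and -0.22 to -0.17 for Tnfrsf1b, with the call lost in 6 and 5 of 18 fits. Between genotypes in M1 Tnfrsf1a ranged from -0.032 to 0.018, and Tnfrsf1b from 0.10 to 0.12, with a call gained without M2 knockout replicate 1 or 3. The depth behind the TPM is unknown, which limits what can be said of the Lta and M2 Ltb levels.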
